A study of Mus musculus with 9 samples.

Results

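The 10 genes described here encode proteins of autophagy, the delivery of cell contents to lysosomes inside double-membraned vesicles, and of mitophagy, its branch that removes mitochondria. They were selected by name, with earlier results of these data known, and all 10 were found among the 54532 genes of the deposited expression table. All 10 were also among the 16123 genes tested, which had a mean of at least 0.2 FPKM (fragments per kilobase of gene, scaled for sequencing depth). RNA was sequenced from the mouse line BV2, microglia made immortal with viral oncogenes, and 3 libraries were made for each of 3 groups. The control group was kept in complete medium with 10% serum. The OGD group was placed under oxygen-glucose deprivation, in low-glucose medium with 4% serum and 4% oxygen. The OGD + A-485 group was deprived in the same way with the compound A-485 added. The paper uses A-485 as an inhibitor of P300, a histone acetyltransferase, and its action on P300 or other enzymes was not measured in these libraries. For the experiments before the transcriptome, 24 h of OGD and 50 μM A-485 from its start are given, and the same is assumed here. OGD thus combined less oxygen, less glucose and less serum, and no group with A-485 but without OGD was analysed here. The comparison of OGD with control shows which of these genes responded to deprivation, and that of OGD + A-485 with OGD shows what the compound added to it.

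In mitophagy, the outer-membrane proteins BNIP3, BNIP3L (NIX) and FUNDC1 act as receptors that bind ATG8 proteins on the forming vesicle directly. The kinase PINK1 accumulates on damaged mitochondria and marks them with phosphorylated ubiquitin, and cargo adaptors such as SQSTM1 (p62) bind ubiquitin chains there. The ATG8 proteins, here MAP1LC3A, MAP1LC3B and GABARAPL1, coat the vesicle membrane, while the kinase ULK1 starts its formation and WIPI1 binds the lipid phosphatidylinositol 3-phosphate on it. *Bnip3* is a textbook target of the hypoxia-inducible factors, and *Sqstm1* and *Map1lc3b* are known to be transcribed more under several kinds of stress.

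Reads on genes, recovered from the FPKM, ranged from 12593250 to 16091038 per library. The cells carried the markers of their line: 7 of 8 microglia and macrophage genes were above 1 FPKM in all 9 libraries, the exception being *Aif1* (0.412 to 2.86 FPKM). Summed over the 8 genes, control libraries reached 417 to 427 FPKM, OGD libraries 496 to 522 and OGD + A-485 libraries 918 to 948, and the part of this shift in the values below was not tested. *Cd68* made up most of the control sum (mean 277 FPKM). The 8 genes did not all rise with OGD: mean *Adgre1* went from 20.8 to 18.8 FPKM and *Spi1* from 43.9 to 38.5, while the others were higher. The 11 markers of other brain cells summed to between 2.12 and 2.78 FPKM in control libraries, 3.38 and 3.87 in OGD libraries, and 2.20 and 2.62 with A-485 added. Of these, 6 stayed under 0.1 FPKM in every library, among them *Aqp4*, *Mog* and *Cldn5*, which were listed at 0 throughout. In these bulk libraries, fewer cells expressing a gene and less RNA of it per cell cannot be told apart.

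The promoter sequences of 4 of these genes are shown because 3 of them (*Bnip3*, *Pink1* and *Sqstm1*) were higher in OGD and the fourth (*Map1lc3b*) was not called in that comparison. The set of RefSeq (GRCm38.p6) promoter windows used here covered 8 of the 10 genes, all but *Bnip3l* and *Map1lc3a*. Those of *Fundc1* and *Wipi1* lay within the gene model of the deposited table and gave no stretch. The stretches below end where the gene model of the deposited table begins and read 5′ to 3′ on the strand of the gene. Capitals mark matches, on either strand, to ACGTG or GCGTG (both forms of the core that hypoxia-inducible factors bind), to CACGTG (the E-box read by TFEB, TFE3 and the MYC family, which contains ACGTG on both strands), to TGATGNAA (bound by ATF4 with C/EBP proteins) or to TGACNNNGC (bound by NRF2).
Bnip3, chr7:138909520-138909756, minus strand: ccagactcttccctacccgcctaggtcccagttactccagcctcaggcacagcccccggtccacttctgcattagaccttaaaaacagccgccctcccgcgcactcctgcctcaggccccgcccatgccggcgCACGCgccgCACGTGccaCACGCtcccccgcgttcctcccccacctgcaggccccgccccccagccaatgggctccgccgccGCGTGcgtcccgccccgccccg
Pink1, chr4:138326308-138326546, minus strand: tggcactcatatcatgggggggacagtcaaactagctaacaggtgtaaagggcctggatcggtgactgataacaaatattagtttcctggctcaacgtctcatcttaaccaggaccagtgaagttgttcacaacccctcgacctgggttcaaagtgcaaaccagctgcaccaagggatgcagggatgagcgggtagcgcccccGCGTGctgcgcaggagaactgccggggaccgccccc
Sqstm1, chr11:50210828-50211070, minus strand: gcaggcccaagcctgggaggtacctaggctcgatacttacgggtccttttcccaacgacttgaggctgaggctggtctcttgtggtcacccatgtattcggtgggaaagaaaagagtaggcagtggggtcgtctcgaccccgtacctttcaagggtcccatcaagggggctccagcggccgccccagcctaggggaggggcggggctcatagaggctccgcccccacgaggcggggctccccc
Map1lc3b, chr8:121590188-121590360, plus strand: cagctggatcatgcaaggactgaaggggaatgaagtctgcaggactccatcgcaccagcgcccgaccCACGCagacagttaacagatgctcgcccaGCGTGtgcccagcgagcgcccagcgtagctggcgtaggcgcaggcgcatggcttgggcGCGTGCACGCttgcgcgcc
The *Bnip3* stretch held 1 CACGTG, 103 to 108 bases before the RefSeq start, with a GCGTG match on either side of it at 95 to 99 and 113 to 117 bases, and a further GCGTG at 31 to 35 bases. Among 32851 RefSeq promoter windows, the first 237 bases held CACGTG in 5.57%, ACGTG in 15.7% and GCGTG in 26.8%. The *Pink1* stretch held 1 GCGTG and that of *Map1lc3b* 4. At least 1 GCGTG was present in 27.1% and 19.1% of windows cut to these lengths, and the share with 4 was not counted. That of *Sqstm1* held none of the 5 letter patterns, of which TGATGNAA occurred in 3.40% and TGACNNNGC in 9.82% of windows of its length. GCGTG occurred in 27.5% of those windows, ACGTG in 16.1% and CACGTG in 5.79%, so most windows lacked any given pattern. Stretches of *Ulk1* and *Gabarapl1*, neither called with OGD, were also available and are not shown. That of *Ulk1* held 1 GCGTG and that of *Gabarapl1* held no match. Letters alone do not show binding, and neither binding nor protein was measured in these libraries.

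OGD raised 5 of the 10 genes and lowered none. *Bnip3* and *Wipi1* more than doubled, *Bnip3l*, *Pink1* and *Sqstm1* rose by a factor of 1.48 to 1.72, and the 3 ATG8 genes, *Fundc1* and *Ulk1* were not called. A gene was called at an unadjusted limma p under 0.01 together with an absolute log2 fold change above 0.5, and by this rule 11.2% of all genes tested were called higher and 9.81% lower. The median log2 fold change was 0.46 over the 10 genes and 0.014 over all genes tested. In 7 of the 10 genes the OGD and control libraries did not overlap, which held for 55.4% of all genes, and 6 passed an adjusted p of 0.05 (limma), beside 45.3% of all genes.

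With A-485 added to OGD, only *Wipi1* was called, and it was lower. The background of calls in this comparison was 12.2% higher and 13.4% lower, or 25.7% in either direction. Below the size threshold, the genes went both ways: by adjusted p under 0.05 (limma, Benjamini-Hochberg), *Bnip3l*, *Sqstm1*, *Map1lc3b* and *Gabarapl1* were higher and *Bnip3*, *Fundc1*, *Map1lc3a* and *Wipi1* lower than in OGD alone. Those 8 of 10 stand beside 49.8% of all genes at the same adjusted p. The groups did not overlap in 9 of the 10 genes, against 56.8% of all genes, and the median log2 fold change was -0.06 (0.012 over all genes). Relative to control, OGD + A-485 was called higher in 6 of the 10 genes (*Bnip3*, *Bnip3l*, *Pink1*, *Sqstm1*, *Map1lc3b* and *Gabarapl1*) and lower in none, with 17% of all genes called higher and 16.6% lower. In that comparison 7 genes passed an adjusted p of 0.05 (limma; 56.6% of all genes) and 9 had separate groups (63.8% of all genes). The comparisons share libraries, so their values stand side by side and are not independent.

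**Figure D1:**
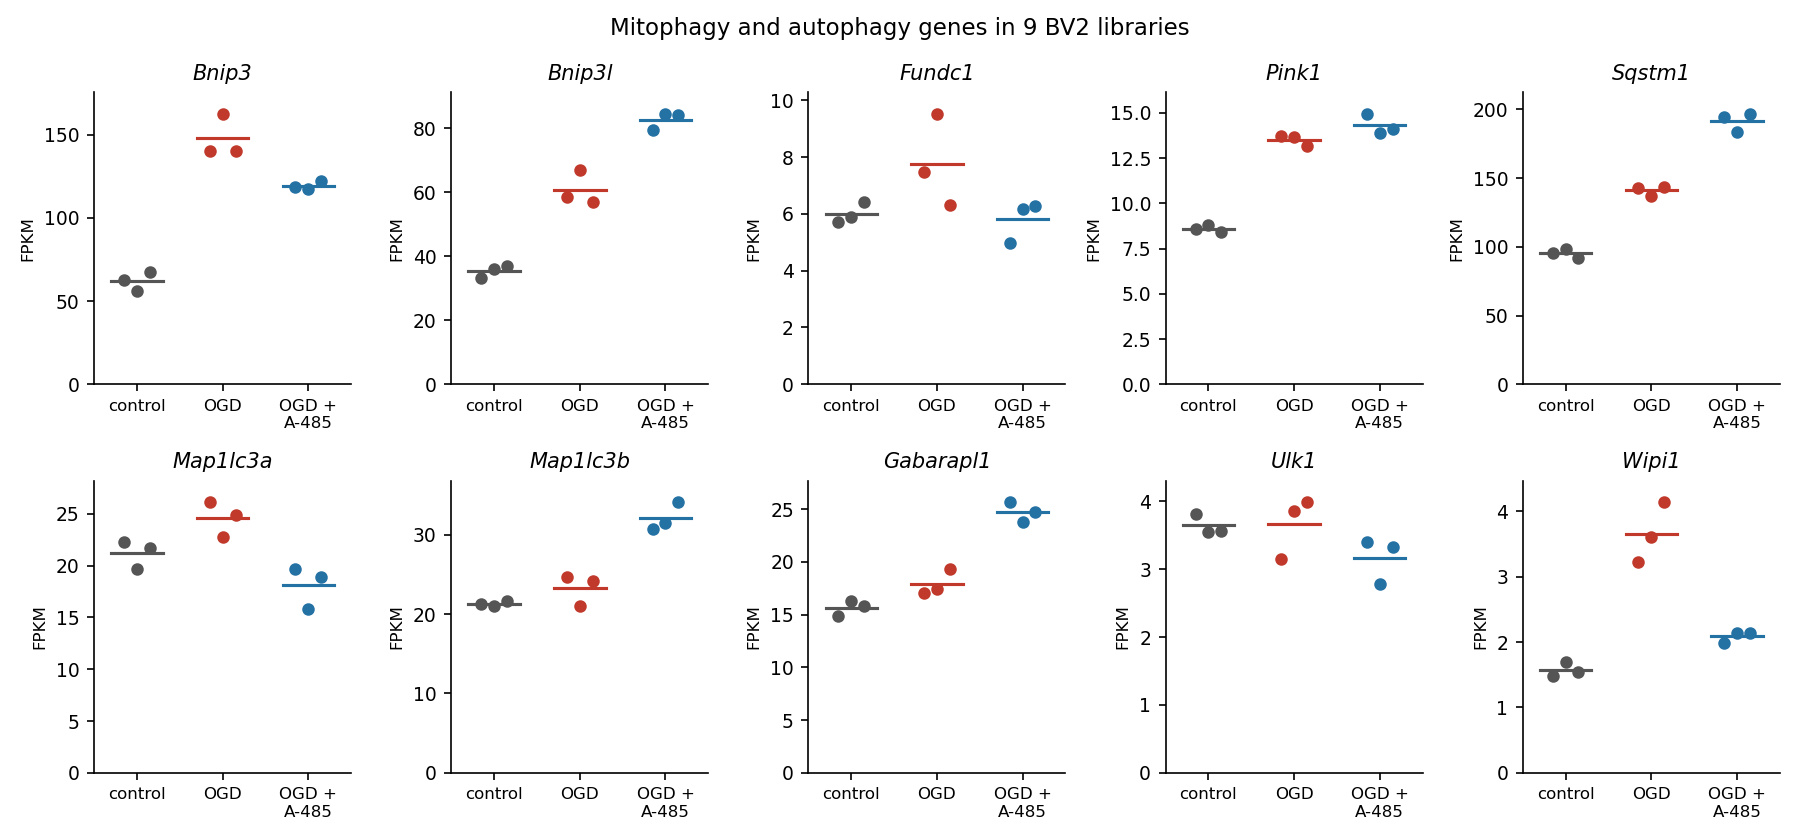
FPKM of the 10 genes (vertical axes from 0) in each of the 9 libraries, as points by group, with the group mean as a line. The OGD libraries lie above the control libraries in Bnip3, Bnip3l, Pink1, Sqstm1 and Wipi1 and, by less, in Map1lc3a and Gabarapl1. The OGD + A-485 libraries are the highest in Bnip3l, Sqstm1, Map1lc3b, Gabarapl1 and, narrowly, Pink1.

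The related receptor genes *Bnip3* and *Bnip3l* were both higher in OGD, and with A-485 they lay on opposite sides of their OGD levels. *Bnip3* (ENSMUSG00000078566, chromosome 7, 138890836 to 138909519, minus strand, GRCm38) had 62.4, 56.1 and 67.7 FPKM in the control libraries, 140.2, 163 and 140.5 in OGD, and 118, 117 and 122 in OGD + A-485. The groups did not overlap: OGD was highest and OGD + A-485 lay between OGD and control. The means were 62.0 ± 5.83, 148 ± 12.9 and 119 ± 2.47 FPKM (SD, n = 3 each). OGD raised *Bnip3* 2.38-fold (log2 fold change 1.25, standard error 0.078, limma, adjusted p = 4.92e-06). A-485 left it 1.24-fold below OGD (log2 fold change -0.31, limma, adjusted p = 0.00996), under the size threshold, and 1.92-fold above control (0.94, limma, adjusted p = 9.06e-06). A processed pseudogene on the opposite strand inside *Bnip3*, Gm18258, had at most 19 reads per library.

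*Bnip3l* (ENSMUSG00000022051, chromosome 14, 66985239 to 67008877, minus strand) had 33.2, 36.1 and 36.9 FPKM in control, 58.4, 67.1 and 57.0 in OGD, and 79.4, 84.6 and 84.1 in OGD + A-485. Its groups were also separate, but here OGD + A-485 was the highest. OGD raised it 1.72-fold (log2 fold change 0.78, standard error 0.068, limma, adjusted p = 2.73e-05), and OGD + A-485 was 1.36-fold above OGD (0.45, limma, adjusted p = 0.000567) and 2.34-fold above control (1.22, limma, adjusted p = 7.65e-07). Without OGD replicate 2 the difference to OGD was 0.52 and called. The 50 nearest expressed genes on chromosome 14 had a median log2 fold change of 0.24 in the same comparison, and with it subtracted *Bnip3l* was at 0.21. Reads can also be split with *Bnip3l-ps*, a transcribed processed pseudogene on chromosome 12 (18216542 to 18217673). It moved the same way, with 5.96 ± 0.235, 11.9 ± 0.332 and 19.9 ± 2.65 FPKM (SD, n = 3), log2 fold changes of 0.99 with OGD and 0.72 with A-485, and how the counting divided reads between both copies was not tested.

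FPKM are divided by the length given for each gene, so levels and ratios between genes depend on those lengths. The fold difference of a ratio between groups does not. The ratio of *Bnip3* to *Bnip3l* was 1.88, 1.55 and 1.83 in control, 2.40, 2.43 and 2.46 in OGD, and 1.49, 1.39 and 1.45 in OGD + A-485. All 3 groups were separate, with OGD highest and OGD + A-485 lowest. Each pairwise difference gave p = 0.1 in a two-sided exact permutation test, the smallest value that 3 against 3 libraries allow, and 0.171 after adjustment over the 12 comparisons of 4 ratios.

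*Fundc1* (ENSMUSG00000025040, X chromosome, 17556564 to 17572325, minus strand), a receptor that hypoxia is known to activate through its phosphorylation state, was less clear. It had 5.73, 5.91 and 6.40 FPKM in control, 7.48, 9.53 and 6.31 in OGD and 4.97, 6.19 and 6.28 in OGD + A-485, from 171 to 292 reads per library. The OGD libraries spread widely, and the lowest of them fell inside the control range. The log2 fold change with OGD was 0.35 (standard error 0.15, limma, adjusted p = 0.0869), which did not pass. Against OGD, OGD + A-485 was at -0.40 (limma, adjusted p = 0.0491), and it was called, at -0.54, only without OGD replicate 3 among the left-out libraries. The difference between OGD + A-485 and control, -0.05 (95% interval -0.39 to 0.28), was within the spread.

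*Pink1* (ENSMUSG00000028756, chromosome 4, 138313409 to 138326307, minus strand) had 8.57, 8.80 and 8.43 FPKM in control, 13.7, 13.6 and 13.1 in OGD, and 14.95, 13.9 and 14.1 in OGD + A-485. Control was well below both other groups, which lay next to each other. The rise with OGD was 1.57-fold (log2 fold change 0.65, standard error 0.044, limma, adjusted p = 7.48e-06). With A-485 it differed from OGD by 0.08 (95% interval -0.02 to 0.18, limma, adjusted p = 0.158), which did not pass.

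*Sqstm1* (ENSMUSG00000015837, chromosome 11, 50199366 to 50210827, minus strand) was the most abundant of the 10 genes in control, with 95.5, 98.5 and 92.2 FPKM. It had 143, 137 and 143 FPKM in OGD and 194, 184 and 197 in OGD + A-485, a stepwise order with no overlap at either step. OGD raised it 1.48-fold (log2 fold change 0.56, standard error 0.042, limma, adjusted p = 1.15e-05). With the median of its 50 neighbours (0.15) subtracted, the rise was 0.42 and under the size threshold. OGD + A-485 was a further 1.36-fold higher (0.44, limma, adjusted p = 3.47e-05) and 2.01-fold above control (1.01, limma, adjusted p = 1.71e-07). The end of *Sqstm1* overlaps *Mrnip* on the opposite strand, which had a mean of 2.37 FPKM over all libraries.

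The ATG8 genes did not reach the size threshold with OGD, and with A-485 they split. *Map1lc3b* (ENSMUSG00000031812, chromosome 8, 121590361 to 121598760, plus strand) had 21.3, 21.0 and 21.6 FPKM in control, 24.7, 21.1 and 24.2 in OGD, and 30.7, 31.5 and 34.1 in OGD + A-485. Control and OGD overlapped, and OGD + A-485 lay above both. OGD and control differed by 0.13 on the log2 scale (standard error 0.065, limma, adjusted p = 0.148), OGD + A-485 and OGD by 0.46 (limma, adjusted p = 0.000368) and OGD + A-485 and control by 0.59 (limma, adjusted p = 5.93e-05). Without OGD replicate 1 the second value was 0.50 and called. The third fell to 0.47, no longer called, when FPKM were rescaled to library totals, which moved the median of all genes from 0.016 to -0.088. The end of *Map1lc3b* overlaps *Zcchc14* on the opposite strand, which had 17.8 ± 0.295, 13.8 ± 0.295 and 13.5 ± 0.477 FPKM (SD, n = 3) and so did not share the order of *Map1lc3b*.

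*Gabarapl1* (ENSMUSG00000030161, chromosome 6, 129533160 to 129542346, plus strand) followed the same order, with 14.9, 16.3 and 15.8 FPKM in control, 17.1, 17.4 and 19.3 in OGD, and 25.7, 23.8 and 24.7 in OGD + A-485. All 3 groups were separate. The difference to control was 0.19 in OGD (log2 scale, standard error 0.058, limma, adjusted p = 0.025), A-485 added 0.46 to that (limma, adjusted p = 0.000179, 0.52 and called without OGD replicate 3) and the sum was 0.66 (limma, adjusted p = 1.41e-05). The last was 0.37 with the median of its neighbours subtracted, and then under the size threshold.

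*Map1lc3a* (ENSMUSG00000027602, chromosome 2, 155276297 to 155278073, plus strand) went the other way with A-485. It had 22.2, 19.7 and 21.7 FPKM in control, 26.1, 22.8 and 24.9 in OGD, and 19.6, 15.9 and 18.9 in OGD + A-485. OGD was the highest group, and the highest OGD + A-485 library lay just below the lowest control library. On the log2 scale it was 0.21 above control in OGD (standard error 0.089, limma, adjusted p = 0.0837) and at -0.44 relative to OGD once A-485 was added (limma, adjusted p = 0.00296). The latter was called under quantile normalization (-0.52), with scaling to library totals (-0.51) and without OGD + A-485 replicate 1 (-0.50). The ratio of *Map1lc3b* to *Map1lc3a* was 0.956, 1.07 and 0.997 in control, 0.945, 0.926 and 0.973 in OGD, and 1.56, 1.98 and 1.80 in OGD + A-485. The ratio lay near 1 in control and OGD, whose libraries overlapped (exact permutation test, two-sided, p = 0.2). *Map1lc3b* had the higher FPKM in every OGD + A-485 library (p = 0.1 against either group, adjusted 0.171, exact permutation test). The level of this ratio, unlike its fold difference between groups, depends on the lengths used, 7517 bases for *Map1lc3b* and 1181 for *Map1lc3a*. The ratio of *Gabarapl1* to *Map1lc3b* was 0.735 ± 0.0383, 0.771 ± 0.0712 and 0.772 ± 0.0578 in the 3 groups, with overlapping libraries. That of *Sqstm1* to *Map1lc3b* was 4.48 ± 0.216 in control libraries, 6.07 ± 0.384 under OGD alone and 5.97 ± 0.307 with A-485 added (SD, n = 3 each), with control apart from both other groups.

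Of the initiation genes, *Wipi1* (ENSMUSG00000041895, chromosome 11, 109573331 to 109611967, minus strand) was the only one of the 10 called in opposite directions by OGD and A-485. It had 1.48, 1.70 and 1.54 FPKM in control, 3.22, 3.61 and 4.14 in OGD, and 1.99, 2.14 and 2.14 in OGD + A-485, from 87 to 257 reads per library. The groups were separate, and OGD + A-485 lay closer to control than to OGD. OGD raised it 2.32-fold (log2 fold change 1.16, standard error 0.11, limma, adjusted p = 4.54e-05), and A-485 lowered it 1.75-fold from there (-0.77, limma, adjusted p = 0.000399). The remaining difference to control was 0.39 (limma, adjusted p = 0.0148), under the size threshold, and 0.035 with the median of its neighbours subtracted.

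*Ulk1* (ENSMUSG00000029512, chromosome 5, 110784488 to 110810097, minus strand) had 3.82, 3.55 and 3.57 FPKM in control, 3.15, 3.86 and 3.99 in OGD, and 3.41, 2.78 and 3.32 in OGD + A-485. The OGD range contained that of control. The log2 fold change with OGD was 0.0011 (95% interval -0.25 to 0.26, limma, adjusted p = 0.999), and its sign turned with 2 of the scalings and 4 of the left-out libraries. With A-485 relative to OGD it was -0.20 (95% interval -0.46 to 0.05, limma, adjusted p = 0.172).

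**Figure D2:**
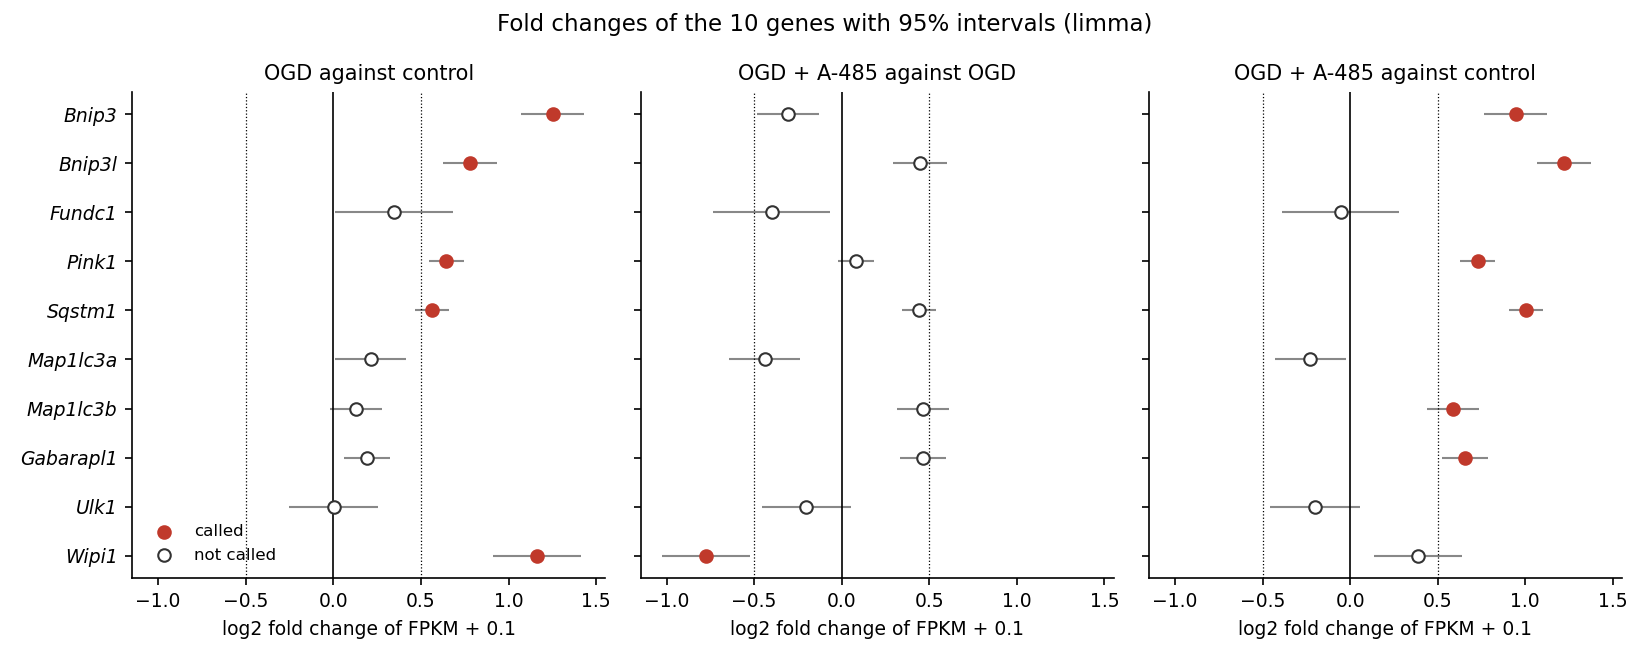
Log2 fold change of FPKM + 0.1 for the 10 genes in the 3 comparisons, with 95% intervals from limma; filled points were called and dotted lines mark the size threshold of 0.5. OGD raised 5 genes, A-485 lowered only Wipi1 past the threshold, and several other A-485 effects sit just inside it.

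By FPKM, which depends on the gene lengths used, *Sqstm1*, *Bnip3* and *Bnip3l* led in every group and *Ulk1* and *Wipi1* were lowest. In control, *Map1lc3b* and *Map1lc3a* did not differ in FPKM beyond their spread. Their reads per control library were 2135 to 2634 and 331 to 415. In OGD, *Bnip3* reached the level of *Sqstm1* (148 ± 12.9 and 141 ± 3.49 FPKM, overlapping libraries) and *Wipi1* that of *Ulk1* (3.66 ± 0.462 and 3.67 ± 0.453 FPKM). In OGD + A-485 the order was *Sqstm1* (192 ± 7.01), *Bnip3* (119 ± 2.47), *Bnip3l* (82.7 ± 2.87), *Map1lc3b* (32.1 ± 1.80) and *Gabarapl1* (24.7 ± 0.931 FPKM, SD, n = 3 each), all with separate libraries.

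Across the 9 libraries, the protein-coding genes whose log2 level was most like that of *Bnip3* were *Pdlim5*, *Mctp1* and *Itgav* (Pearson r of 0.997, 0.996 and 0.991 among 10037 genes searched). For *Sqstm1* they were *Cndp2*, *Maged1* and *Cd300lf* (r of 0.999 for each), and for *Map1lc3b* they were *Rit1*, *Cdc42se1* and *Tmco4* (0.996, 0.988 and 0.987). These values describe 9 libraries in 3 groups, and genes with similar group means score high on this measure.

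The other genes of the pathway were taken from a list of 92, of which 88 passed the minimum level. OGD raised 12 of the 88 and lowered 3, or 15 called (17%) beside 21% of all genes tested. A-485 raised 16 above their OGD level and lowered 4, or 20 called (22.7%) beside 25.7% of all genes. With scaling to library totals the second split was 14 to 8. Against control, 27 were higher and 7 lower, or 34 called (38.6%) beside 33.7% of all genes. The median log2 fold changes of the list were 0.14, 0.09 and 0.24, against 0.014, 0.012 and 0.016 over all genes. By direction, 13.6% of the list was higher and 3.41% lower with OGD (11.2% and 9.81% of all genes), 18.2% and 4.55% with A-485 relative to OGD (12.2% and 13.4%), and 30.7% and 7.95% relative to control (17% and 16.6%). These shares describe a chosen list and were not tested.

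With OGD, *Ulk2*, the paralogue of *Ulk1*, rose from 4.39 ± 0.315 to 8.15 ± 0.512 FPKM (SD, n = 3), 0.88 on the log2 scale (limma, adjusted p = 2.59e-05), beside 0.0011 for *Ulk1*. Also higher were *Atg13* (0.61) and *Rb1cc1* (0.57, and 0.50 with a pseudocount of 1, then not called), which encode partners of the ULK kinases, whereas *Atg101*, another partner, was lower (-0.56, and -0.47 without OGD replicate 2, then not called). Among cargo receptors, *Calcoco1* (0.81) and *Nbr1* (0.72), a relative of *Sqstm1*, were raised. *Nbr1* had 24.8 ± 1.18 FPKM under OGD alone and 23.1 ± 0.855 with A-485 added (SD, n = 3), a difference that did not pass (limma, adjusted p = 0.0948). *Atg5*, part of the conjugation machinery of ATG8 proteins, fell by 0.54 on the log2 scale. It was not called with a pseudocount of 1 (-0.50). Of the 11 genes tested for ATG8 conjugation and processing, *Atg5* was the only 1 called lower, and 2 were called higher. Over all genes tested, 11.2% were called higher and 9.81% lower. *Optn*, which encodes a receptor for ubiquitin-marked cargo, was listed at 0 in all libraries.

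The pair of genes listed for the turnover of BNIP3 and NIX moved in mirror image. FBXL4 is the substrate-binding part of a ubiquitin ligase of the mitochondrial outer membrane that marks BNIP3 and NIX for degradation, and the phosphatase PPTC7 assists it. *Fbxl4* had 4.02, 4.14 and 3.87 FPKM in control, 6.16, 7.99 and 6.10 in OGD, and 4.11, 3.45 and 3.62 in OGD + A-485. *Pptc7* had 11.9, 12.4 and 12.5 FPKM in control, 7.79, 7.16 and 7.08 in OGD, and 12.1, 11.8 and 12.02 in OGD + A-485. OGD was apart from both other groups in each gene, above them for *Fbxl4* and below them for *Pptc7*. *Fbxl4* rose with OGD by 0.73 (standard error 0.11, limma, adjusted p = 0.00075) and fell with A-485 by 0.83 (limma, adjusted p = 0.000279). *Pptc7* fell with OGD by 0.73 (standard error 0.048, limma, adjusted p = 6.28e-06) and rose with A-485 by 0.70 (limma, adjusted p = 5.1e-06). Against control, OGD + A-485 was at -0.11 for *Fbxl4* (limma, adjusted p = 0.453) and at -0.033 for *Pptc7* (limma, adjusted p = 0.597), neither past the test.

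**Figure D3:**
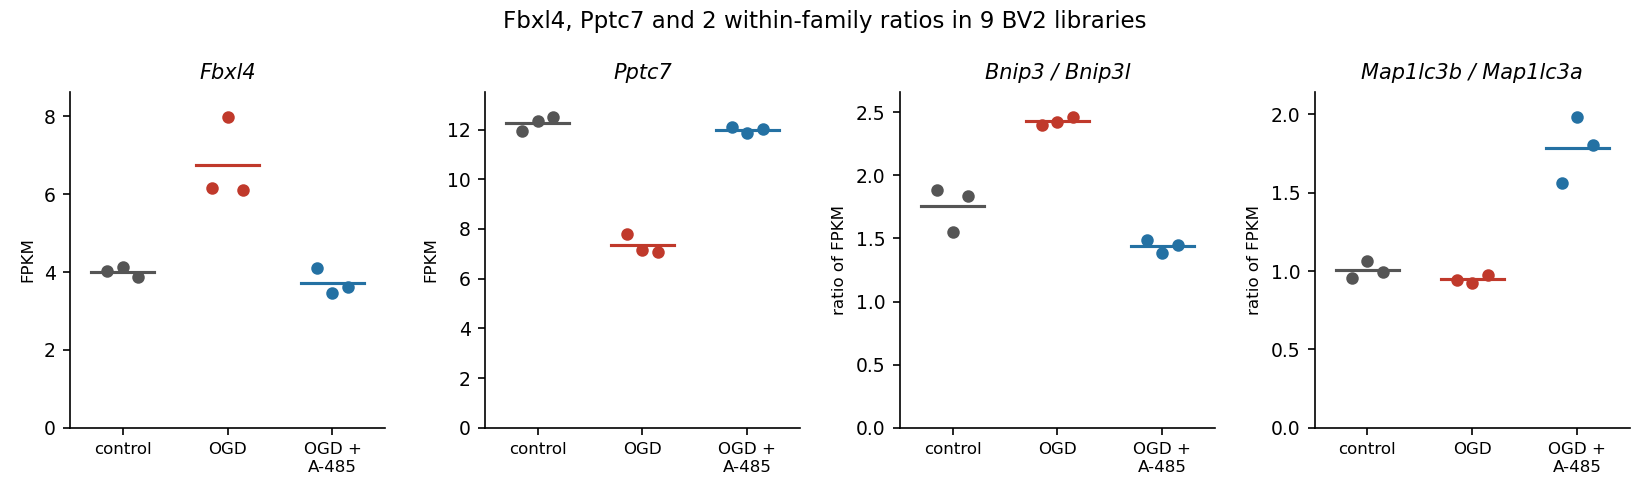
FPKM of Fbxl4 and Pptc7 and the ratios of FPKM of Bnip3 to Bnip3l and of Map1lc3b to Map1lc3a (vertical axes from 0) in each of the 9 libraries, with group means as lines. OGD stands apart from both other groups for Fbxl4, Pptc7 and the Bnip3 to Bnip3l ratio, and OGD + A-485 stands apart for the Map1lc3b to Map1lc3a ratio.

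With A-485, transcription regulators of autophagy and lysosomes were among the largest changes of the list. *Tfeb*, which encodes a master activator of lysosomal and autophagy genes, had 2.17, 2.46 and 2.08 FPKM in control, 1.65, 1.68 and 1.71 in OGD and 5.47, 4.25 and 4.76 in OGD + A-485. OGD was the lowest group and OGD + A-485 2.16-fold above control. Its log2 fold change was 1.46 relative to OGD (standard error 0.11, limma, adjusted p = 7.93e-06) and 1.07 relative to control (limma, adjusted p = 3.45e-05). *Flcn*, whose product restrains TFEB and TFE3 through mTORC1 signalling, rose as well, from 16.0 ± 1.32 to 32.5 ± 1.67 FPKM (SD, n = 3), by 1.02 (limma, adjusted p = 3.68e-06), and *Tfe3* by 0.54. The call of *Tfe3* was lost with a pseudocount of 1 (0.46), with scaling to library totals (0.48) and without OGD + A-485 replicate 3 (0.49). *Mitf*, of the same family, was lower (-0.81, limma, adjusted p = 2.95e-05).

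Of the 14 genes for fusion of autophagosomes with lysosomes, A-485 raised 5 and lowered none, beside 12.2% of all genes called higher and 13.4% lower. All 5 are named here, 4 of them after their values were seen. They were *Vps18* (0.95) and *Vps33a* (0.67), which encode core subunits of the tethering complexes, the SNARE gene *Vamp8* (0.80), *Plekhm1* (0.77) and *Tecpr1* (0.76). Without the size threshold the 14 genes went both ways. At an adjusted p under 0.05 (limma), 8 were higher and 3 lower, beside 49.8% of all genes in either direction. *Gabarap*, the closest relative of *Gabarapl1*, had 62.4, 60.9 and 61.9 FPKM in control, 78.4, 79.9 and 80.2 in OGD, and 124, 127 and 137 in OGD + A-485, 0.70 above OGD on the log2 scale (limma, adjusted p = 2.04e-06). *Gabarapl2* lay between 18.7 and 21.3 FPKM in all 9 libraries (0.04 relative to OGD, limma, adjusted p = 0.598). *Sec62*, a receptor for autophagy of the endoplasmic reticulum, was higher by 0.998, with neighbours at a median of 0.38. Besides *Fbxl4* and *Mitf*, *Atg16l2* (-0.58, and -0.42 with a pseudocount of 1, then not called) and *Prkaa2* (-0.51) were lower. *Prkaa2*, a catalytic subunit of AMPK, was not called without OGD replicate 1 (-0.49), OGD replicate 2 (-0.47) or OGD + A-485 replicate 1 (-0.46), nor with a pseudocount of 1 (-0.47).

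**Figure D4:**
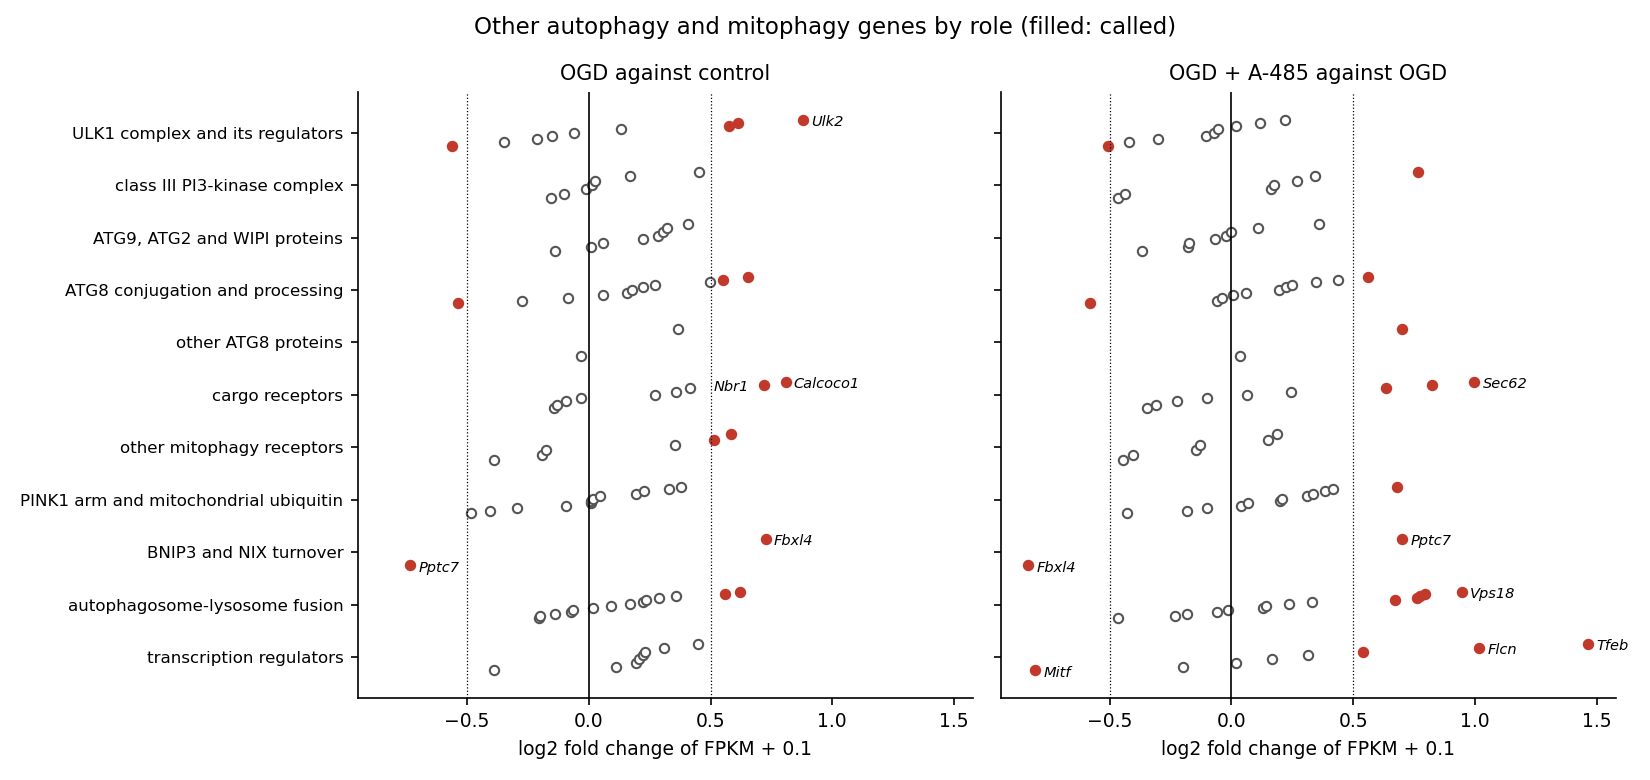
Log2 fold change of FPKM + 0.1 for the 88 other autophagy and mitophagy genes by role, for OGD against control and OGD + A-485 against OGD; filled points were called and dotted lines mark 0.5. Fbxl4 and Pptc7 change sides between the panels, and Tfeb and Flcn lie farthest to the right in the second.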

How the data were processed

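RNA of BV2 cells was sequenced in 9 libraries, grouped by their titles. According to the paper, the authors removed low-quality reads, counted reads per gene with featureCounts and computed FPKM from gene length and read count. The deposited table gives FPKM. The submitters' processing notes name GRCm38 and mm10, and all 10 genes had GENCODE M21 (GRCm38) coordinates. The aligner and strand setting are not given in the sources used here. FPKM times gene length gave whole reads for 100% of values (tolerance 0.02), and 1 read on 1 kb equalled 0.0618 to 0.0786 FPKM. Replicates varied beyond counting noise (chi-square statistics of 2.67 to 5.24 per degree of freedom). Whether they were separate cultures is not stated, so p-values measure the spread between these libraries.

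Genes averaging at least 0.2 FPKM were fitted as log2(FPKM + 0.1) over all 9 libraries with limma 3.58.1 in R 4.3.3 (trended prior variance, Benjamini-Hochberg adjustment over all genes). This scale understates changes of low genes. Thresholds follow the paper, whose count test was not repeated. On simulated data for OGD against control (15844 genes), 92% of 2-fold changes, 100% of 4-fold changes and 0.428% of unchanged genes were called. Genes named beyond the 10 are the 4 called genes of the wider list with the largest rise and fall in the first 2 comparisons (mean of at least 1 FPKM, no overlap), the ATG8 relatives and *Optn*. 1 gene of the wider list is not reported here. *Atg13*, *Rb1cc1*, *Tfe3*, *Vamp8*, *Plekhm1*, *Tecpr1* and *Vps33a* were added after their values were seen. The genes and lists were chosen with earlier results of these data known. Alternatives were pseudocounts, filters, scalings, a replicate block, limma-voom on recovered reads, neighbouring genes and left-out libraries. Python 3.11.15 was used for promoters and figures.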

Additional observations from a re-analysis of the deposited data

How the results depend on the processing

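With OGD, 5 of the 10 genes were called under the alternatives run except an adjusted p under 0.05 (6) and, counted so after seeing the data, with the median of neighbouring genes subtracted (4, without *Sqstm1*). For OGD + A-485 against control between 5 and 7 were called. For OGD + A-485 against OGD the count was 1, but 2 with quantile normalization, 2 with scaling to library totals, 8 with an adjusted p under 0.05 and between 1 and 3 with a library left out. An adjusted p under 0.05 with no size threshold moved the calls of the wider list to 50, 56 and 68 and those of all genes to 7300, 8036 and 9130 in the 3 comparisons. Signs turned only for small differences. *Ulk1* with OGD was at -0.047 with quantile normalization and with scaling to library totals and between -0.062 and 0.10 with a library left out. *Fundc1* in OGD + A-485 against control lay between -0.11 and 0.053 with a library left out. With a library left out, *Gabarapl2* lay between -0.063 and 0.016 for OGD against control, between -0.013 and 0.065 for OGD + A-485 against OGD and between -0.018 and 0.030 for OGD + A-485 against control. In the second comparison it was at -0.028 with quantile normalization and -0.030 with scaling to library totals, and in the third at -0.048, -0.11 and, with limma-voom, -7.4e-05. *Vps33a* with OGD was at -0.032 with scaling to library totals and between -0.023 and 0.070 with a library left out. *Plekhm1* in OGD + A-485 against control was not called with scaling to library totals (0.46). That scaling moved the split of calls over all genes in the same comparison from 2747 higher and 2684 lower to 2253 and 3350. Libraries sharing a replicate number did not vary together (correlations from -0.046 to 0.039), and 0 of 9 correlated best with their own number in both other groups. With the replicate number as a block, 5, 1 and 6 of the 10 genes were called, and none of 99 fold changes of single genes changed its call. Depth limits genes with few reads, such as *Wipi1* (87 to 257 per library).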
